A study of Mus musculus with 4 samples.

Results

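Genes that move phospholipids across membranes were examined in the irradiated small intestine (SI), the 4 phospholipid scramblases Plscr1, Plscr2, Plscr3 and Plscr4, the anoctamins Ano6 and Ano9, the XK-related genes Xkr8 and Xkr9, and the flippase Atp11a. They were taken by gene name from the deposited count table, where each name matched a single row, so they are 9 of 56748 genes. All 9 had enough counts to be tested and are among the 16094 genes tested. There were 2 libraries of p53+/+ SI, labelled WT, and 2 of p53-/- SI, each collected at 1 day post 12 Gy total-body irradiation (TBI). Per the study's methods the p53+/+ and p53-/- mice were obtained from the Jackson Laboratory and were matched for age and gender. The counts of Xist given below were high in library 10 only, so by this gene the sequenced libraries were not matched for sex. The p53-/- mice carry the deletion in every tissue, so a difference cannot be assigned to epithelium or to immune cells, and both genotypes were irradiated, so the effect of TBI itself cannot be read from these libraries. The RNA was taken from whole SI, in which fewer cells of a type and less RNA per cell cannot be told apart. The libraries carry the numbers 7 and 8 (p53+/+) and 9 and 10 (p53-/-) in the deposited table, and these numbers pair no animals. Levels are given as CPM, the count of a gene relative to the scaled size of its library.

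Depth was 15005479 to 22173164 counts per library. Trp53 itself was at 57.7 and 47.1 CPM in p53+/+ SI against 19.8 and 22.5 CPM in p53-/- SI (adjusted p = 0.0602 from edgeR). A count over the whole gene does not resolve the deleted part. Libraries 10 and 8 stand apart from the rest. Library 10 held 588 counts of Xist, which is made by female cells, against at most 4 counts in the others. Markers of B cells (6 genes) summed to 431 CPM there, against 21.8 CPM in library 9 and 1.11 and 1.82 CPM in p53+/+ SI. Rn18s-rs5, a ribosomal RNA repeat, took 0.296% and 0.473% of the counts in p53+/+ SI and 0.863% and 4.59% in p53-/- SI, and its part in the results was not tested. Library 8 was rich in muscle, with 5 smooth muscle markers summing to 3672 CPM against 395 to 855 CPM elsewhere. Markers of enterocytes, the absorptive cells that define this tissue, summed to between 17664 and 26968 CPM over 10 genes. Apoa1 and Anpep were the highest of them. Not all were abundant, since Lct had only 10 to 16 counts in a library and Fabp1 lay at 2.41 to 5.45 CPM. Apoa4 ranged from 12.4 to 260 CPM.

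In a resting cell phosphatidylserine is kept on the cytoplasmic leaflet of the plasma membrane. Flippases, which are P4-type ATPases such as Atp11a, spend ATP to return it inward, while scramblases move phospholipids in both directions without ATP and, once activated, expose phosphatidylserine at the surface. Ano6 (TMEM16F) is opened by calcium and is best known from platelets, Xkr8 is switched on when caspases cleave it during apoptosis, and exposed phosphatidylserine marks a dying cell for engulfment. Irradiation of the SI triggers p53-dependent apoptosis in the crypts, which is the setting in which these genes were read.

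Of the 9 genes, 5 had an entry in the RefSeq table of promoters (GRCm38.p6). The 250 bases before the start are shown for Ano6, Plscr4 and Plscr1, because these had the smallest p of the 9 in the comparison of genotypes. All are on the plus strand and read 5′ to 3′. Capitals mark a match to the p53 half-site.

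Ano6, chr15:95790593-95790842: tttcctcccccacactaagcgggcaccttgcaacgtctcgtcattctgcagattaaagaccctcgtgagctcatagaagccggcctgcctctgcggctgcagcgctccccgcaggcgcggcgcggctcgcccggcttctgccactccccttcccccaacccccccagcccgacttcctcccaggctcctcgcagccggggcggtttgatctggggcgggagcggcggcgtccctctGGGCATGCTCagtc

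Plscr4, chr9:92457128-92457377: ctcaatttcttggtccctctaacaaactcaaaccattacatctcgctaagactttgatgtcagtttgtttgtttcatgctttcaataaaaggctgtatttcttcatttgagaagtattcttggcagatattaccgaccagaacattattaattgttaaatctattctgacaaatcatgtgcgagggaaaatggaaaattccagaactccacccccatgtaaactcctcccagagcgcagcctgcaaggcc

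Plscr1, chr9:92249944-92250193: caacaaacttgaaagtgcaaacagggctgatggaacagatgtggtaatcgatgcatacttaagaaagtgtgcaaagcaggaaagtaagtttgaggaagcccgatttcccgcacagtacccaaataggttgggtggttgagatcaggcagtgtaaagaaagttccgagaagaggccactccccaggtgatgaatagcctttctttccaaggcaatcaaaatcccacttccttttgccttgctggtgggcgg

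The windows searched were 300 bases long, since they also took in the first 50 bases after the start, and both strands were read. A match to the p53 half-site, a motif of 10 letters with degenerate positions, was found in the Ano6 window only among the 5 genes with an entry, ending 4 bases before the start. The same motif was found in 8.36% of all 32851 windows in the table. The core of the interferon-stimulated response element (GAAA, then 2 bases of any kind, then GAAA) was found in none of these 5 genes and in 3.44% of all windows. A match is a run of letters and no evidence of binding, and its absence says only that these letters are not in this window. The Ano6 window was rich in G and C (69.7%) and held 29 CpG, while the Plscr4 window was at 42.0% with 5 CpG and the Plscr1 window at 50.7% with 7 CpG, against a median of 52.7% G and C over all windows.

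By level per length, Plscr1 was the most abundant of the 9 genes, with 61.6 to 246 CPM per kilobase of exon over the 4 libraries. Ano9 followed with 22.3 to 25.5 CPM per kilobase, and neither the Plscr1 nor the Xkr9 range overlapped it. Xkr9 (7.83 to 13.0) and Ano6 (5.47 to 14.1) overlapped and changed places between genotypes. Ano6 was higher in both p53+/+ libraries and Xkr9 in both p53-/- libraries. Ano6 and Plscr3 (4.87 to 6.72) overlapped as well. Plscr4 (1.22 to 4.67) and Atp11a (1.78 to 2.35) also changed places between genotypes, with Plscr4 above Atp11a in both p53+/+ libraries and below it in both p53-/- libraries. Xkr8 (0.858 to 1.3) and Plscr2 (0.234 to 0.755) came last and did not overlap each other. Within the PLSCR family, Plscr1 supplied between 86.8% and 93.9% of the summed CPM in each library.

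**Figure D1:**
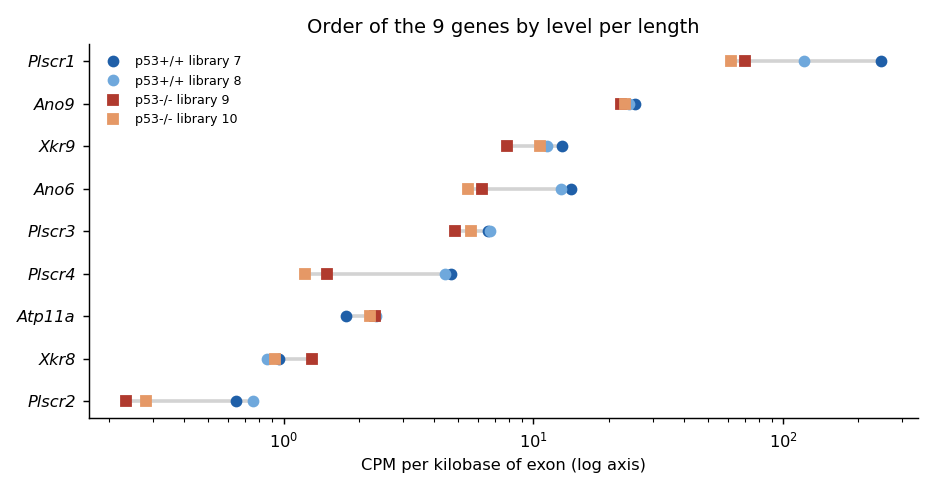
Level of each gene in CPM per kilobase of exon (log axis), with 1 point per library, circles for p53+/+ and squares for p53-/-, and a grey line over the range. Plscr1 lies at 61.6 or more in every library and Plscr2 at 0.755 or less, while the ranges of Xkr9 and Ano6 overlap.

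The comparison of p53-/- with p53+/+ SI asks which of these genes differed between the genotypes after TBI. Plscr1, Plscr2, Plscr4 and Ano6 were at between 29.8% and 43.4% of their p53+/+ mean in the p53-/- SI. For Plscr3, Ano9 and Xkr9 that share was between 75.8% and 91.7%, and Xkr8 and Atp11a overlapped between genotypes. None of the 9 passed the threshold of an adjusted p under 0.05 in edgeR's quasi-likelihood test, where 0.491% of all genes tested did (0.193% lower and 0.298% higher in p53-/-). At an unadjusted p under 0.05, 4 of the 9 were lower, against 7.92% of all genes tested, and none was higher. With DESeq2, 3 of the 9 (Ano6, Plscr4 and Plscr1) were lower with an adjusted p under 0.05, against 4.47% of the genes it gave an adjusted p. Both p53-/- libraries lay below both p53+/+ libraries for 7 of the 9 genes, against 24.4% of all genes tested, and above them for none, against 26.4%. The median log2 fold change of the 9 was -0.40, beside -0.0084 over all genes tested.

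**Figure D2:**
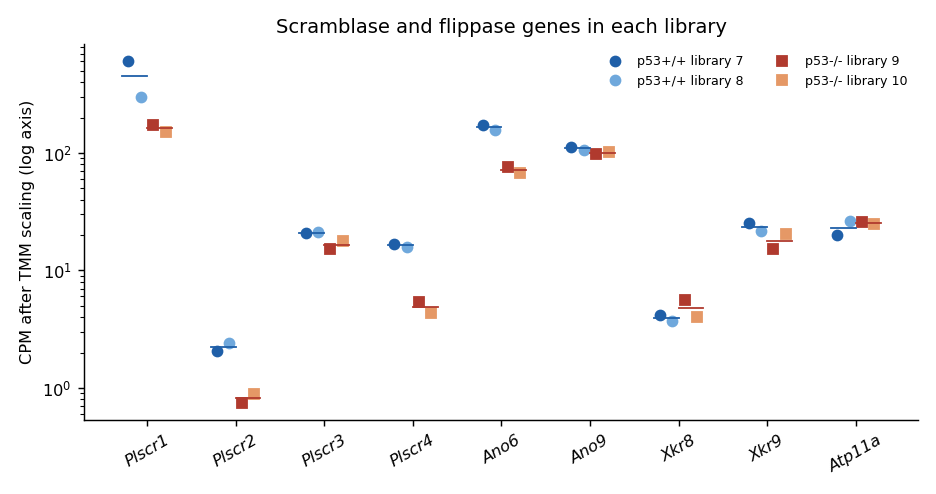
CPM of each gene in each library (log axis), with circles for p53+/+, squares for p53-/- and a bar at the mean of the 2 libraries of a genotype. The p53-/- means of Plscr1, Plscr2, Plscr4 and Ano6 lie at 29.8% to 43.4% of the p53+/+ means. The 2 p53+/+ libraries of Plscr1 lie 2.04-fold apart, and the genotypes overlap for Xkr8 and Atp11a.

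Plscr1 (ENSMUSG00000032369), a scramblase that is also induced by interferon, was at 604 and 297 CPM in p53+/+ SI against 173 and 152 CPM in p53-/- SI. The p53-/- libraries were close together, while the 2 p53+/+ libraries differed 2.04-fold from each other. Means were 451 ± 217 and 162 ± 14.8 CPM (SD, n = 2). On the log2 scale the difference was -1.48 with a standard error of 0.369, and the edgeR adjusted p was 0.145, so it was not called. The size depended on library 7, since the log2 fold change was -0.86 (adjusted p = 0.116) without it and -1.90 (adjusted p = 0.0153) without library 8. With DESeq2 the adjusted p was 0.000530, and over the 11 alternatives it ran from 6.57e-07 to 0.701. Of the 50-base words in its transcripts, 12.3% also occur in Gm5530, which had only 6 to 18 counts in a library.

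Plscr2 (ENSMUSG00000032372), the neighbour of Plscr1 in the genome, was close to the lower end of detection, with 33 and 37 reads in p53+/+ SI against 17 and 18 in p53-/- SI. These are 2.04 and 2.40 CPM against 0.745 and 0.895 CPM. The p53-/- mean was 36.9% of the p53+/+ mean, nearly the same share as for Plscr1 (36%), and the log2 fold change was -1.43 with a 95% interval from -2.69 to -0.18. The adjusted p was 0.233 with edgeR and 0.351 with DESeq2, so neither test called it.

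Plscr4 (ENSMUSG00000032377), a further gene of the same cluster, was at 16.8 and 15.8 CPM in p53+/+ SI against 5.35 and 4.38 CPM in p53-/- SI. It had the lowest log2 fold change of the 9, at -1.74 (standard error 0.291), and both genotypes were tight, differing by 1.06-fold and 1.22-fold between their own libraries. The adjusted p was 0.0836 with edgeR and 8.54e-05 with DESeq2, the lowest of the 11 alternatives. Leaving out library 7 or 8 gave an edgeR adjusted p of 0.0456 and 0.0319, past the threshold, and leaving out library 9 or 10 gave 0.211 and 0.560, while the log2 fold change lay between -1.90 and -1.55. Plscr5, the remaining gene of the cluster, had 0 counts in every library.

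Plscr3 (ENSMUSG00000019461), which is known as the mitochondrial member and acts on cardiolipin, gave a smaller estimate. It was at 20.6 and 21.2 CPM in p53+/+ SI against 15.3 and 17.8 CPM in p53-/- SI. The p53-/- mean was 79.3% of the p53+/+ mean, with a log2 fold change of -0.34 and a 95% interval from -0.88 to 0.21 (adjusted p = 0.493 from edgeR). Its value is uncertain for another reason, because 28.3% of its exon bases lie under Tnk1 on the opposite strand, which had 416 to 639 counts, and the strand setting of the counting is not given in the sources used here.

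Ano6 (ENSMUSG00000064210), the calcium-activated scramblase, was at 173 and 158 CPM in p53+/+ SI against 76.3 and 67.1 CPM in p53-/- SI. It had the smallest p of the 9 genes (unadjusted p = 0.000610). The log2 fold change was -1.20 (standard error 0.171), the p53-/- mean was 43.4% of the p53+/+ mean, and the adjusted p was 0.0592 with edgeR and 4.00e-08 with DESeq2, the lowest of the alternatives. Without library 7 or without library 8 the edgeR adjusted p was 0.0405 and 0.0257, and without library 9 or 10 it was 0.163 and 0.437, while the log2 fold change stayed between -1.31 and -1.06. A130051J06Rik and Gm49172 on the opposite strand overlap 1.74% and 0.994% of its exon bases.

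Ano9 (ENSMUSG00000054662), an anoctamin that is found in epithelia, gave the estimate closest to 0 among the genes whose groups did not overlap. Its levels were 112 and 107 CPM in p53+/+ SI against 98.4 and 102 CPM in p53-/- SI. The p53-/- mean was 91.7% of the p53+/+ mean, with a log2 fold change of -0.13 and a 95% interval from -0.51 to 0.26 (adjusted p = 0.738 from edgeR). Per length, Ano9 was above Ano6 in every library.

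Xkr8 and Xkr9 are the members of the XK family in this set, and both are activated by caspases. Xkr9 (ENSMUSG00000067813) was at 25.1 and 21.7 CPM in p53+/+ SI against 15.1 and 20.4 CPM in p53-/- SI, a log2 fold change of -0.40 with a 95% interval from -1.02 to 0.22 (adjusted p = 0.472 from edgeR). Its groups did not overlap, although library 10 (20.4 CPM) lay close to library 8 (21.7 CPM). The log2 fold change was -0.20 without library 9 and -0.58 without library 10. Xkr8 (ENSMUSG00000037752), which needs the chaperones basigin or neuroplastin to reach the surface, was at 4.15 and 3.70 CPM in p53+/+ SI against 5.61 and 3.98 CPM in p53-/- SI. The genotypes overlapped, and the 95% interval of its log2 fold change ran from -0.72 to 1.29 around 0.29 (adjusted p = 0.773 from edgeR). Without library 9 the value was 0.016, and without library 10 it was 0.57.

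Atp11a (ENSMUSG00000031441), the flippase of the set, which is inactivated by caspases during apoptosis, was at 19.9 and 26.2 CPM in p53+/+ SI against 25.8 and 24.7 CPM in p53-/- SI. Library 8 lay above both p53-/- libraries and library 7 below both. The log2 fold change was 0.13 with a 95% interval from -0.42 to 0.68 (adjusted p = 0.813 from edgeR), and it changed sign to -0.045 without library 7 and was 0.34 without library 8.

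Summed over the 9 genes, the level was 978 and 653 CPM in p53+/+ SI against 415 and 393 CPM in p53-/- SI. Most of the spread between the p53+/+ libraries came from Plscr1, because the other 8 genes summed to 373 and 356 CPM there, and to 243 and 242 CPM in p53-/- SI. Among these 8, Ano6 had the largest difference in CPM (173 and 158 against 76.3 and 67.1 CPM).

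**Figure D3:**
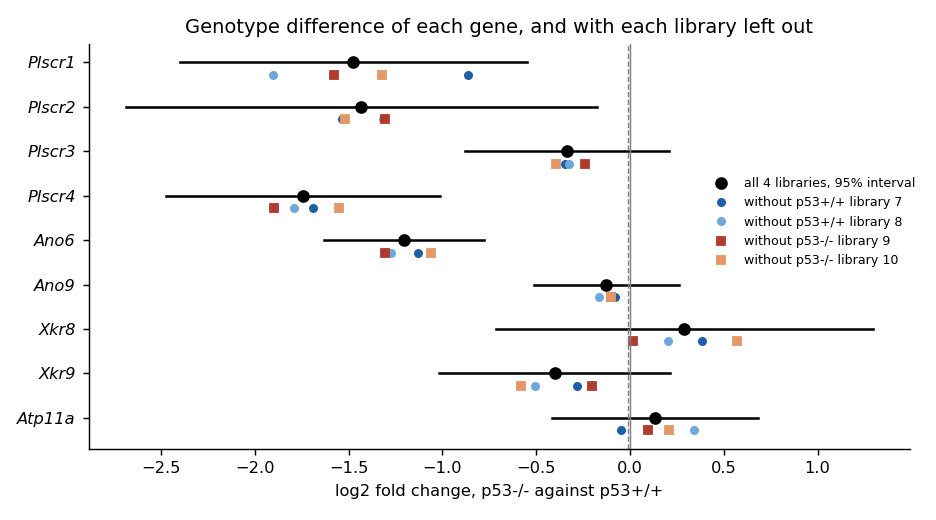
Log2 fold change of p53-/- against p53+/+ for each gene, with its 95% interval from edgeR (black), and the same value with each library left out (coloured), beside the median of all genes tested (dashed line). Plscr1 moves most, from -1.90 to -0.86, while Plscr4 stays between -1.90 and -1.55 and Atp11a crosses 0.

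Genes with the most similar pattern over the 4 libraries were sought among 13997 tested protein-coding genes, by the Euclidean distance between log2 CPM values centred on each gene's own mean. For Ano6 they were Ajuba (distance 0.0519), Cpped1 (0.0614) and Abhd4 (0.0981), a lipase of N-acyl phospholipids. For Plscr1 they were Plekha8 (0.159), Por (0.160), the electron donor of cytochrome P450 enzymes, and Hkdc1 (0.168), a hexokinase family member. Por was at 278 and 126 CPM in p53+/+ SI against 74.0 and 59.7 CPM in p53-/- SI, so it shared the high value of library 7. These 4 libraries are few for such a ranking, and it is given as a description.

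The other genes of the pathway were read from 6 lists with 75 genes, of which 64 were tested. A single gene of these passed the threshold in edgeR, Atg9b. With DESeq2 8 did (6 lower and 2 higher, against 4.47% and 5.47% of the genes that DESeq2 gave an adjusted p). At an unadjusted p under 0.05 in edgeR, 1275 of all 16094 genes tested were lower and 1617 were higher.

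Atg9b (ENSMUSG00000038295), one of a pair of ATG9 scramblases that act on the membranes of forming autophagosomes, was counted 370 and 399 times in p53+/+ SI against 17 and 22 times in p53-/- SI. Its mean level fell to 0.920 ± 0.247 CPM from 24.4 ± 2.11 CPM (SD, n = 2). The edgeR estimate was -4.72 on the log2 scale, with a standard error of 0.349 and an adjusted p of 0.0224. The p53-/- mean was 3.77% of the p53+/+ mean. Without library 10 the log2 fold change was -4.97 and the adjusted p 0.189. Of the 21 other scramblases and paralogs, 16 were tested, and their median log2 fold change was -0.43. The value was below 0 for 12 of the 16, beside 8165 of 16094 over all genes tested. At an unadjusted p under 0.05, 6 of the 16 were lower and 2 higher, and DESeq2 called 3, all lower. Vmp1, an endoplasmic reticulum scramblase and the most abundant of the list per length, was at 284 and 221 CPM against 214 and 212 CPM (adjusted p = 0.601 from edgeR).

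Among the 17 other flippases and their subunits, 14 were tested and none passed the threshold in edgeR (at an unadjusted p under 0.05, 1 was lower and 3 were higher). DESeq2 called 1, Atp8a1, a plasma membrane flippase named here after its values were seen. It was at 11.6 and 13.7 CPM in p53+/+ SI against 23.4 and 29.6 CPM in p53-/- SI (log2 fold change 1.07, adjusted p = 0.124 from edgeR and 0.0132 from DESeq2). The 14 values lay on both sides, with 8 below 0 and 6 above 0 and a median log2 fold change of -0.13. Atp8b1, whose human counterpart is mutated in familial cholestasis, was the most abundant per length, at 507 and 392 CPM against 456 and 328 CPM (adjusted p = 0.764 from edgeR). The smallest p belonged to Atp8b5, with 37 and 15 reads in p53+/+ SI against 3 in each p53-/- library.

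Of the 6 transporters that carry phospholipids or sterols outward, 5 were tested and none passed the threshold in edgeR (1 had an unadjusted p under 0.05, and DESeq2 called 1). Abcb1a, which encodes a P-glycoprotein, was both the most abundant per length and the one with the smallest p, at 1131 and 878 CPM in p53+/+ SI against 457 and 297 CPM in p53-/- SI (log2 fold change -1.41, adjusted p = 0.119 from edgeR and 1.66e-05 from DESeq2).

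Of the 4 partners and proteases of the XK-related scramblases, 2 lay below 0 and 2 above, and none passed the threshold in edgeR (1 had an unadjusted p under 0.05, and DESeq2 called 1). Bsg, which encodes basigin, was at 819 and 666 CPM against 609 and 658 CPM (adjusted p = 0.675 from edgeR). Among the 3 genes that make or use phosphatidylserine, none passed the threshold in edgeR (1 had an unadjusted p under 0.05, and DESeq2 called 1). Ptdss1, a synthase, was at 150 and 132 CPM against 145 and 128 CPM (adjusted p = 0.929 from edgeR). Pisd, the mitochondrial decarboxylase that turns phosphatidylserine into phosphatidylethanolamine, was at 83.8 and 47.2 CPM against 28 and 26 CPM (log2 fold change -1.28, adjusted p = 0.129 from edgeR and 0.00334 from DESeq2).

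Of the 24 genes that recognise exposed phosphatidylserine or engulf the cells that carry it, 22 were tested and none passed the threshold in edgeR (at an unadjusted p under 0.05, 1 was lower and 2 were higher, and DESeq2 called 1, Gas6). The values lay on both sides of 0, with 8 of the 22 below it and 14 above, beside 7929 of 16094 above it over all genes tested, and their median was 0.37. Gas6, the ligand that bridges phosphatidylserine to the TAM receptors, was its most abundant gene per length and had the smallest p. It was at 246 and 282 CPM in p53+/+ SI against 114 and 94.1 CPM in p53-/- SI, that is, -1.34 on the log2 scale (adjusted p = 0.0637 from edgeR and 2.65e-08 from DESeq2).

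**Figure D4:**
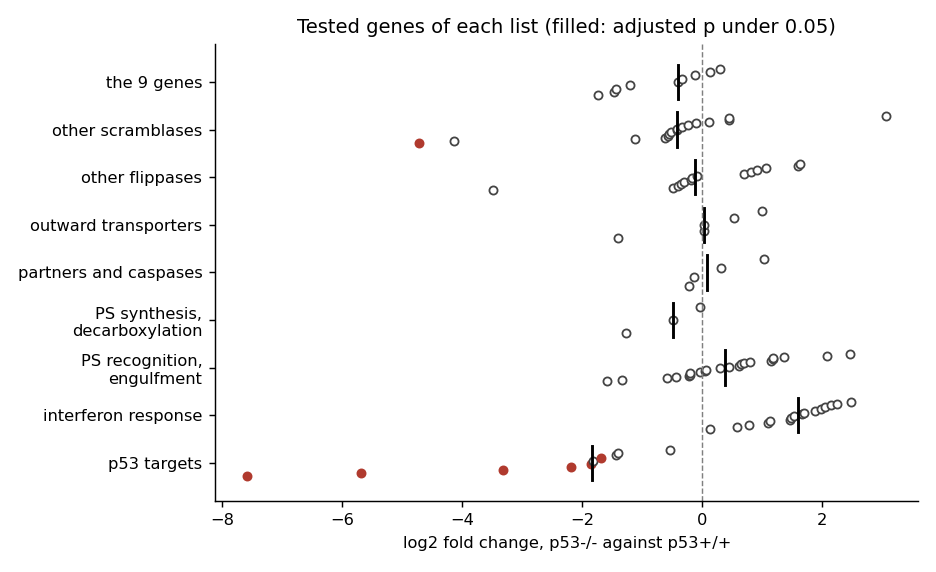
Log2 fold change of p53-/- against p53+/+ for every tested gene of each list (points; filled where the adjusted p from edgeR was under 0.05), with the median of each list as a black bar and the median of all genes tested as a dashed line. Among the lists of the pathway Atg9b is filled, at -4.72, and the interferon and p53 lists lie on opposite sides of 0, while Eda2r (leftmost among the p53 targets) and Atp8b5 (leftmost among the flippases) rest on 3 or fewer counts in each p53-/- library.

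Plscr1 belongs to the interferon-stimulated genes, so 16 other genes of that response were read beside it. All 16 were higher in both p53-/- libraries than in both p53+/+ libraries, against 26.4% of all genes tested. In edgeR 15 had an unadjusted p under 0.05 and none an adjusted p under 0.05. With DESeq2 12 had an adjusted p under 0.05, against 5.47% of the genes it gave one. Their summed level was 360 and 473 CPM in p53+/+ SI against 847 and 876 CPM in p53-/- SI, and the median log2 fold change was 1.59. Irf7, an interferon regulatory factor and the most abundant of the list per length, was at 168 and 149 CPM against 173 and 174 CPM (adjusted p = 0.755 from edgeR). Plscr1 was lower in both p53-/- libraries but was not called (adjusted p = 0.145 from edgeR). The part of interferon in its level was not tested.

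The direct p53 targets were lower in p53-/- SI, as were Plscr1, Plscr4 and Ano6, which are named here for their small p. Whether p53 acts directly on Plscr1, Plscr4 or Ano6 was not tested, and a shared direction does not show it. All 10 p53 targets were lower in both p53-/- libraries, against 24.4% of all genes tested. Their median log2 fold change was -1.85. In edgeR 6 passed the threshold (Phlda3, Ccng1, Eda2r, Zmat3, Bax and Sesn2), against 0.193% of all genes tested that were called lower. Their summed level was 1708 and 1758 CPM in p53+/+ SI against 472 and 496 CPM in p53-/- SI. Cdkn1a, the cell cycle inhibitor p21 and the most abundant of the list per length, was at 619.8 and 639.9 CPM against 221 and 246 CPM (log2 fold change -1.43, adjusted p = 0.0592 from edgeR). Among the 6, Zmat3 had the smallest difference, at -1.70 on the log2 scale (adjusted p = 0.0282 from edgeR).

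Cell type markers also differed between the genotypes, and their part in these differences was not tested. The 10 enterocyte markers summed to 26968 and 26944 CPM in the p53+/+ libraries and to 21348 and 17664 CPM in p53-/- SI. Of these, 5 were lower in both p53-/- libraries, against 24.4% of all genes tested, and the median log2 fold change was -0.62. The 5 goblet cell markers summed to between 9190 and 13487 CPM, and the 5 tuft cell markers to between 44.7 and 60.0 CPM. Both sums were lower in the p53-/- libraries. Within these lists Agr2, Fcgbp and Avil overlapped between the genotypes, and Pou2f3 was higher in both p53-/- libraries. The 5 stem and crypt markers summed to 216 and 170 CPM against 650 and 669 CPM, which rested on Olfm4 (47.6 and 16.0 CPM against 473 and 525 CPM), since of the others Ascl2 was lower in both p53-/- libraries, Axin2 overlapped, and Lgr5 and Smoc2 were higher by at most 0.67 on the log2 scale. The 4 Paneth cell markers summed to 11062 and 7577 CPM against 13195 and 15037 CPM. The 7 T cell markers summed to 7.49 and 13.8 CPM against 63.9 and 116 CPM, and the 5 macrophage markers to 41.0 and 69.6 CPM against 102 and 115 CPM. Markers of B cells (6 genes) summed to 1.11 and 1.82 CPM against 21.8 and 431 CPM. All 5 of them that were tested were higher in both p53-/- libraries, against 26.4% of all genes tested. The 5 platelet and megakaryocyte markers summed to between 1.86 and 5.47 CPM, with Gp9, Ppbp and Gp1bb at 0 in at least 1 library. The 5 smooth muscle markers were high in library 8, and each overlapped between the genotypes.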

How the data were processed

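RNA of whole SI (2 p53+/+ and 2 p53-/- libraries) was sequenced after poly-A selection. The deposited values are raw counts per gene, not normalized by the authors. Their processing notes name fastp, HISAT2 2.0.5, featureCounts 1.5.0-p3 and DESeq2 1.20.0. The genome build, annotation and strand setting are not given in the sources used here. Column names show genotype, not the labelled replicate number.

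Libraries were scaled by TMM and low counts removed by filterByExpr. The genotypes were compared over all genes with edgeR's quasi-likelihood test (edgeR 4.0.16, R 4.3.3), two-sided, with Benjamini-Hochberg adjustment (threshold 0.05). Standard errors were derived from its F statistic. Each test was run on simulated counts with known changes to check its estimates. That simulation held no outlying library, unlike these data. DESeq2 1.42.0, the likelihood ratio test, other scalings, other filters and each library left out were the alternatives. Exon lengths, overlaps and shared 50-base words came from GENCODE M21, which holds 91.8% of the gene identifiers, and its build (GRCm38) may not be that of the authors, so lengths are approximate and gene coordinates are left out. Named genes were all 9 genes, and in each list those past the threshold, otherwise the one with the smallest p, and the most abundant per length, except that 2 genes this rule picks are not reported here. The genes and lists were chosen with earlier results of these data known, and lists are described by counts and medians. The labels name no animals, but the study's methods describe every data point as a biological replicate. The p-values rest on the spread between 2 libraries per genotype and, since edgeR and DESeq2 share variance between genes, on other genes too.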

Additional observations from a re-analysis of the deposited data

How the results depend on the processing

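The count of the 9 genes past the threshold was 0 (4 with an unadjusted p under 0.05), against 3 (Ano6, Plscr4 and Plscr1) with DESeq2, 3 with the likelihood ratio test and 3 with no filter on low counts, and between 0 and 3 with single libraries left out. Over all genes tested the count was 79, against 1475, 1295 and 2194 under the same 3 alternatives, 46 with library sizes only, 49 with upper-quartile factors, 42 with at least 10 counts in every sample, and 0 (without library 10, where 1201 had an unadjusted p under 0.05) to 1024 (without library 8) with single libraries left out. Of the genes of the 6 pathway lists 1 passed, against 8, 10 and 20 under the same 3 alternatives and 0 to 12 with single libraries left out. The cause of these shifts was not tested. The log2 fold change of Atp11a changed sign to -0.045 without library 7 (0.34 without library 8), and no other of the 9 genes or Atg9b changed sign under any of the 11 alternatives. The median of the 9 stayed between -0.58 and -0.24. Where a library was left out, the lone library of its genotype was assumed to vary like the others. No paired analysis was possible because the columns of the table carry no replicate number of the labels. Genes at few counts, such as Plscr2 with 17 to 37 counts in a library, are limited by depth.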

Other observations

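Engulfment genes that stand out in single libraries were picked after their values were seen. Mfge8, which bridges phosphatidylserine to integrins, was counted 542 and 798 times in p53+/+ SI, 1034 times in p53-/- library 9 and 8488 times in p53-/- library 10. Timd4, a phosphatidylserine receptor of macrophages, was counted 6 and 14 times in p53+/+ SI against 29 and 84 times in p53-/- SI. Havcr1, a receptor of the same family, had 0 counts in libraries 7, 8 and 9 and 91 counts in library 10. Library 10 is the one in which the B cell markers summed to 431 CPM, and their part in these values was not tested.

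Of the 22 engulfment genes tested, 3 were lower in both p53-/- libraries (Adgrb1, Dock1 and Gas6), against 24.4% of all genes tested. Adgrb1 had only 12 to 47 counts in a library. A further 6 were higher in both, against 26.4% of all genes tested, among them Timd4, Elmo1 and Cd300lf. The rest of these 6 were C1qa, C1qb and C1qc, the chains of complement C1q made by macrophages. Their log2 fold changes were 1.17, 1.17 and 1.14 (adjusted p between 0.302 and 0.384 from edgeR). The 5 macrophage markers were also higher in sum (41.0 and 69.6 CPM against 102 and 115 CPM), and their part in these values was not tested.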
